A study of Caenorhabditis elegans with 7 samples.

Results

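The genes described here encode proteins that write, erase or read marks on histones, the proteins around which DNA is wound. They were taken as every gene on the array whose symbol starts with set-, met-, mes-, hda-, sir-2., jmjd-, hpl- or mys-, together with cbp-1, utx-1, lin-35, spr-5 and wdr-5.1. This gave 62 genes of the 17118 that had a probe set of their own, a probe set being a group of short probes that together give 1 value. The 62 genes had 89 such probe sets, and the probe set with the highest mean over all arrays stood for each gene. The symbols jmjd-4, mes-6, set-9, set-26, set-28, set-29 and set-33 (7 in all) had no probe set of their own.

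Methyltransferases with a SET domain add methyl groups to lysines of histones, and the lysine that is methylated decides what the mark is associated with. Methylation of lysine 4 of histone H3 (H3K4) is found at active promoters, that of H3K36 along transcribed genes, and that of H3K9 and H3K27 in silent chromatin. Demethylases remove these marks, acetyltransferases and deacetylases add and remove acetyl groups, and proteins such as HP1 bind the marks. In *C. elegans* many of these genes are known for their roles in the germline, which fills much of an adult hermaphrodite.

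The worms were whole young adults of strain N2, the laboratory wild type, and were compared after growth on 2 media. One group was grown from the egg on Nematode Growth Medium (NGM) agar with 1 µg/mL of 13L, a synthetic peptide whose sequence was identified in a cocoa by-product (3 arrays, SL4, SL8 and SL12). The control group was grown on NGM agar alone (4 arrays, SL1, SL5, SL9 and SL69). Both groups were synchronized and kept at 20°C for 3 days. The methods give 4 biological replicates for each condition. A 13L array beyond these 3 is not analysed here. The question was which transcripts differ in worms fed the peptide. In whole worms, fewer cells of a type and less RNA per cell cannot be told apart.

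Each sample was hybridised to 1 Affymetrix *C. elegans* array, and the deposited log2 values had array medians of 1.01 to 1.06. Over probe sets, pairs of arrays correlated at 0.982 to 0.995. The 5 yeast control probe sets, whose targets are not worm genes, had means of up to 0.742, and 53 of the 62 genes lay above that level. The other 9 were hda-4, hda-11, jmjd-1.1, jmjd-3.1, set-6, set-8, set-11, set-27 and sir-2.3, whose values carry little signal over background. All 14 germline markers and all 13 oocyte and eggshell markers were above the yeast controls, as were 8 of 8 intestine and 6 of 6 muscle markers. Of 11 sperm markers 8 were above them, and the sum of their log2 values lay between 19.6 (SL4) and 33.2 (SL12) on 13L, against 15.9 (SL1) and 31.9 (SL5) on NGM. The arrays thus differed in sperm transcripts within each diet.

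No gene of the 62 passed an adjusted p of 0.05 in limma's moderated test (13L minus NGM, adjusted over all 22548 probe sets tested), and 0% of all probe sets did. The lowest adjusted p was 0.944, among these genes and among all probe sets. At an unadjusted p under 0.05, 2 of the 62 genes were higher on 13L (mys-2 and set-15), against 2.54% of all probe sets. In the lower direction there was 1 gene (utx-1), against 2.57% of all probe sets. These shares are close to the background. The 3 arrays of 13L lay above all 4 of NGM for 1 gene (mys-2), against 3.31% of all probe sets, and below them for 0 genes, against 2.77%.

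Differences were positive for 30 genes and negative for 32. Their median was -0.0020 on the log2 scale, against 0.0052 over all probe sets, and the range ran from -0.40 (utx-1) to 0.30 (hda-1). The median absolute difference was 0.083, against 0.089 over all probe sets. The absolute difference was under 0.2 for 53 of the 62 genes. The 95% intervals had half-widths of 0.19 to 0.67, with a median of 0.29. All 62 intervals lay between -0.93 and 0.65, so none reached a difference of 1 on the log2 scale. The number of arrays limits this precision. The difference was larger than the range of the NGM arrays for 2 genes, mes-4 and set-32 (3.23%), against 6.86% of all probe sets.

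**Figure D1:**
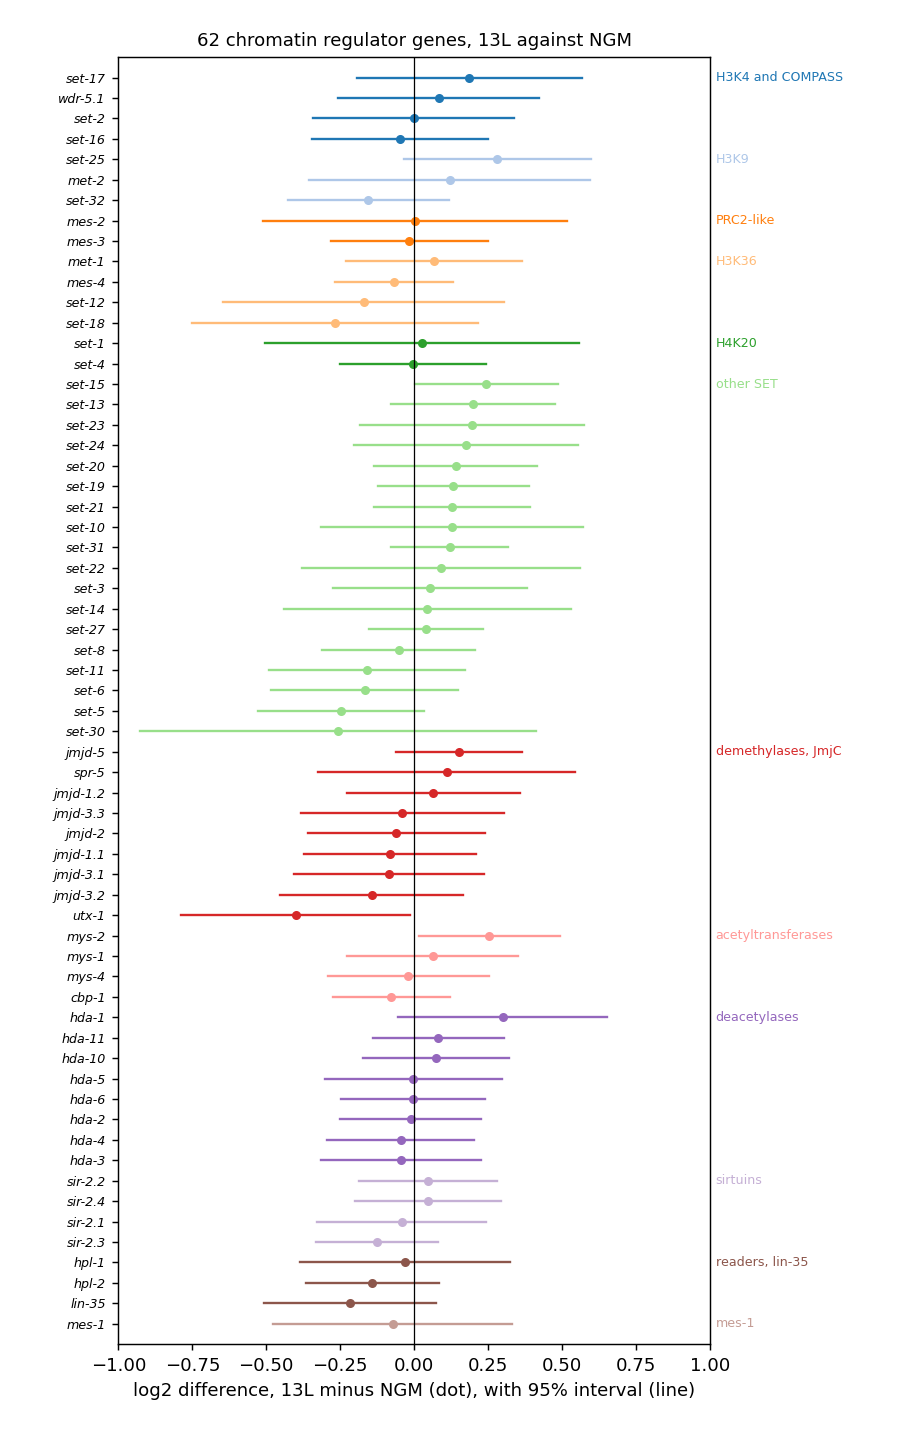
Log2 difference, 13L minus NGM (x axis, dot), with its 95% interval from limma (line), for each of the 62 genes, grouped by role and ordered by difference within each role. The dots lie between -0.40 for utx-1 and 0.30 for hda-1, and the intervals cross 0 for all but mys-2, set-15 and utx-1.

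Values of single genes are given below in the order SL4, SL8 and SL12 for 13L and SL1, SL5, SL9 and SL69 for NGM, each as a log2 value. Levels of different probe sets cannot be set against each other.

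The genes that put methyl groups on H3K4 showed no shared direction. Of the 4 measured, 2 were positive and 2 negative, with a median of 0.04. None of the 4 reached an unadjusted p under 0.05. The methyltransferase set-2, the catalytic subunit of the main H3K4 methylating complex (COMPASS), had values of 5.43, 5.04 and 4.74 on 13L and 5.14, 5.09, 5.03 and 5.03 on NGM. Its difference was -0.0018 ± 0.15 (SE, adjusted p = 0.998 from limma). The 13L arrays held both the highest and the lowest of the 7 values. Their SD was 0.35 (n = 3), against 0.052 (n = 4) on NGM. The probe set of wdr-5.1, a WD40 subunit of the same complex, read 6.65, 6.84 and 6.27 on 13L and 6.48, 6.41, 6.38 and 6.74 on NGM, a difference of 0.08 ± 0.15 (SE, adjusted p = 0.973 from limma). Again SL12 was the lowest array. set-17, an H3K4 methyltransferase that acts in the germline, read 5.65, 5.26 and 4.95 on 13L and 5.12, 5.32, 4.89 and 5.07 on NGM, with a difference of 0.19 ± 0.17 (SE, unadjusted p = 0.294, adjusted p = 0.953 from limma). SL4 stood highest and SL12 lay within the NGM values. Without SL4 the difference was 0.0051, without SL12 0.35 and without SL9 0.12. set-16, a methyltransferase of the mammalian MLL type, differed by -0.05.

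Among the 3 H3K9 methyltransferases, met-2 and set-25 were positive and set-32 was negative. set-25, which makes the trimethylated form at the nuclear periphery, had 1.43, 1.83 and 1.48 on 13L and 1.20, 1.25, 1.58 and 1.17 on NGM. The difference was 0.28 ± 0.14 (SE), the second highest of the 62 genes, with an unadjusted p of 0.0750 (adjusted p = 0.944 from limma). The groups overlapped only through SL9, which lay above SL4 and SL12, and an exact permutation test over the arrays gave p = 0.171 (two-sided). The smallest p that 3 against 4 arrays allow in this test is 0.0571. Leaving SL9 out gave 0.38 (unadjusted p = 0.0178 and adjusted p = 0.831 from limma), and leaving SL8 out gave 0.16. The other probe set of set-25, which lies below the yeast controls, differed by 0.17.

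met-2, the counterpart of SETDB1, which makes mono- and dimethylated H3K9, had 4.32, 4.09 and 3.47 on 13L and 3.77, 4.17, 3.56 and 3.85 on NGM. All 4 NGM values lay within the 13L range of 0.84, and the difference was 0.12 ± 0.21 (SE, adjusted p = 0.972 from limma). set-32, which acts with small RNAs in germline silencing, differed by -0.15 (SE 0.12). Its NGM arrays spanned only 0.076, against 0.50 on 13L, where SL4 was the highest and SL12 the lowest of all 7.

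The PRC2-like complex, which methylates H3K27 in the germline, was measured through mes-2 and mes-3, whose differences were 0.0028 and -0.02. mes-2, the catalytic subunit, read 3.65, 3.80 and 3.09 on 13L and 3.85, 3.62, 3.59 and 2.98 on NGM. A low array stood in each diet, SL12 and SL69, and the SE of the difference was 0.23 (adjusted p = 0.998 from limma). mes-3, a subunit found in nematodes, read 5.28, 5.48 and 5.19 on 13L and 5.49, 5.13, 5.42 and 5.31 on NGM, with an SE of 0.12 (adjusted p = 0.992 from limma). For mes-6, the counterpart of the EED subunit, the only probe set is shared with C09G4.4, and its value of 0.14 (unadjusted p = 0.132) cannot be assigned to either gene.

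Of the 4 H3K36 methyltransferases, 3 were negative and met-1 was positive (0.07), with a median of -0.12. mes-4, which keeps H3K36 methylation on germline genes, read 5.84, 5.70 and 5.61 on 13L and 5.80, 5.79, 5.75 and 5.81 on NGM. Its 4 NGM values spanned 0.055 on the log2 scale, and the difference was -0.07 ± 0.09 (SE, adjusted p = 0.966 from limma). SL4 lay above all NGM arrays, and SL8 and SL12 below them. The difference was -0.13 without SL4 and -0.016 without SL12. set-18, a relative of the SMYD methyltransferases, read 0.69, 1.35 and 1.34 on 13L and 1.61, 1.17, 1.08 and 1.73 on NGM. The difference was -0.27 ± 0.21 (SE, unadjusted p = 0.241, adjusted p = 0.950 from limma). SL1 and SL69 were above all other arrays and SL4 below all, and the difference was -0.05 without SL4, -0.16 without SL69 and 0.0066 without SL1 and SL69. set-12 differed by -0.17, with SL4 (3.04) highest and SL8 (2.09) lowest of the 7 arrays.

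The H4K20 methyltransferases set-1 and set-4 showed differences near 0. set-1, which adds the methyl group needed for chromosome condensation and dosage compensation, read 4.58, 4.30 and 3.89 on 13L and 4.56, 4.15, 3.68 and 4.53 on NGM. The values spanned 0.90 over the 7 arrays, and the difference was 0.03 ± 0.23 (SE, adjusted p = 0.993 from limma). SL12 was the lowest array of 13L and SL9 of NGM. set-4, which makes the di- and trimethylated forms, differed by -0.0038.

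The remaining 18 SET domain genes were positive in 13 cases and negative in 5, with a median of 0.11 and a range of -0.26 to 0.24. Over all 31 SET domain genes, 19 were positive and 12 negative, and the median was 0.04, against 0.0052 over all probe sets. One of the 18 had an unadjusted p under 0.05. set-15 read 1.02, 0.88 and 0.80 on 13L and 0.83, 0.54, 0.54 and 0.72 on NGM. The groups overlapped by 1 pair, SL12 below SL1. Its difference was 0.24 ± 0.11 (SE, unadjusted p = 0.0486, adjusted p = 0.944 from limma), and its mean of 0.76 lay just above the yeast controls. The exact permutation test gave p = 0.114 (two-sided). The unadjusted p was over 0.05 when SL4, SL8, SL5, SL9 or SL69 was left out, with arrays centred on their median, with cyclic loess, with trend and robust settings and among probe sets above the yeast controls. On the lower side, set-5 differed by -0.25 (SE 0.12, unadjusted p = 0.0786) and set-30 by -0.26 (SE 0.30). set-30 had the widest range of the 62 genes (1.45), from 2.24 on SL9 to 3.68 on SL69, both NGM arrays.

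The 9 demethylases and JmjC proteins were positive in 3 cases and negative in 6, with a median of -0.06. utx-1, which removes methyl groups from H3K27 and has been studied in worms for its effect on lifespan, had the lowest difference of the 62 genes. It read 3.69, 3.29 and 3.03 on 13L and 4.0, 3.48, 3.73 and 3.74 on NGM. The means were 3.34 ± 0.33 on 13L (SD, n = 3) and 3.74 ± 0.21 on NGM (SD, n = 4). This is a difference of -0.40 ± 0.17 (SE), or 0.758 of the NGM level, with a 95% interval of -0.79 to -0.012. The unadjusted p was 0.0444 and limma's adjusted p was 0.944. SL8 and SL12 lay below all NGM arrays, while SL4 lay above SL5, and the exact permutation test gave p = 0.114 (two-sided).

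The second probe set of utx-1 read 2.37, 2.36 and 1.90 on 13L and 2.41, 2.24, 1.86 and 2.80 on NGM, a difference of -0.12 (unadjusted p = 0.590). Without SL4 the first probe set differed by -0.58 (unadjusted p = 0.00689, adjusted p = 0.873 from limma). The unadjusted p stayed under 0.05 when SL4 or SL5 was left out, and was over it without SL8, SL12, SL1, SL9 or SL69. It was also over 0.05 without SL1 and SL69, with array weights and among probe sets above the yeast controls. With the mean over both probe sets the difference was -0.26 (unadjusted p = 0.151 from limma). Without SL12 the difference was -0.25. spr-5, the counterpart of the H3K4 demethylase LSD1, read 2.74, 2.83 and 2.64 on 13L and 2.09, 2.69, 3.03 and 2.69 on NGM. Its 13L values lay between those of SL1 and SL9, and the difference was 0.11 ± 0.19 (SE, adjusted p = 0.972 from limma). Among the 7 genes named jmjd-, the differences ran from -0.14 for jmjd-3.2 to 0.15 for jmjd-5. jmjd-1.2, known for its part in the mitochondrial stress response, differed by 0.07 (SE 0.13), and jmjd-2, a demethylase of H3K9 and H3K36, by -0.06 (SE 0.13).

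**Figure D2:**
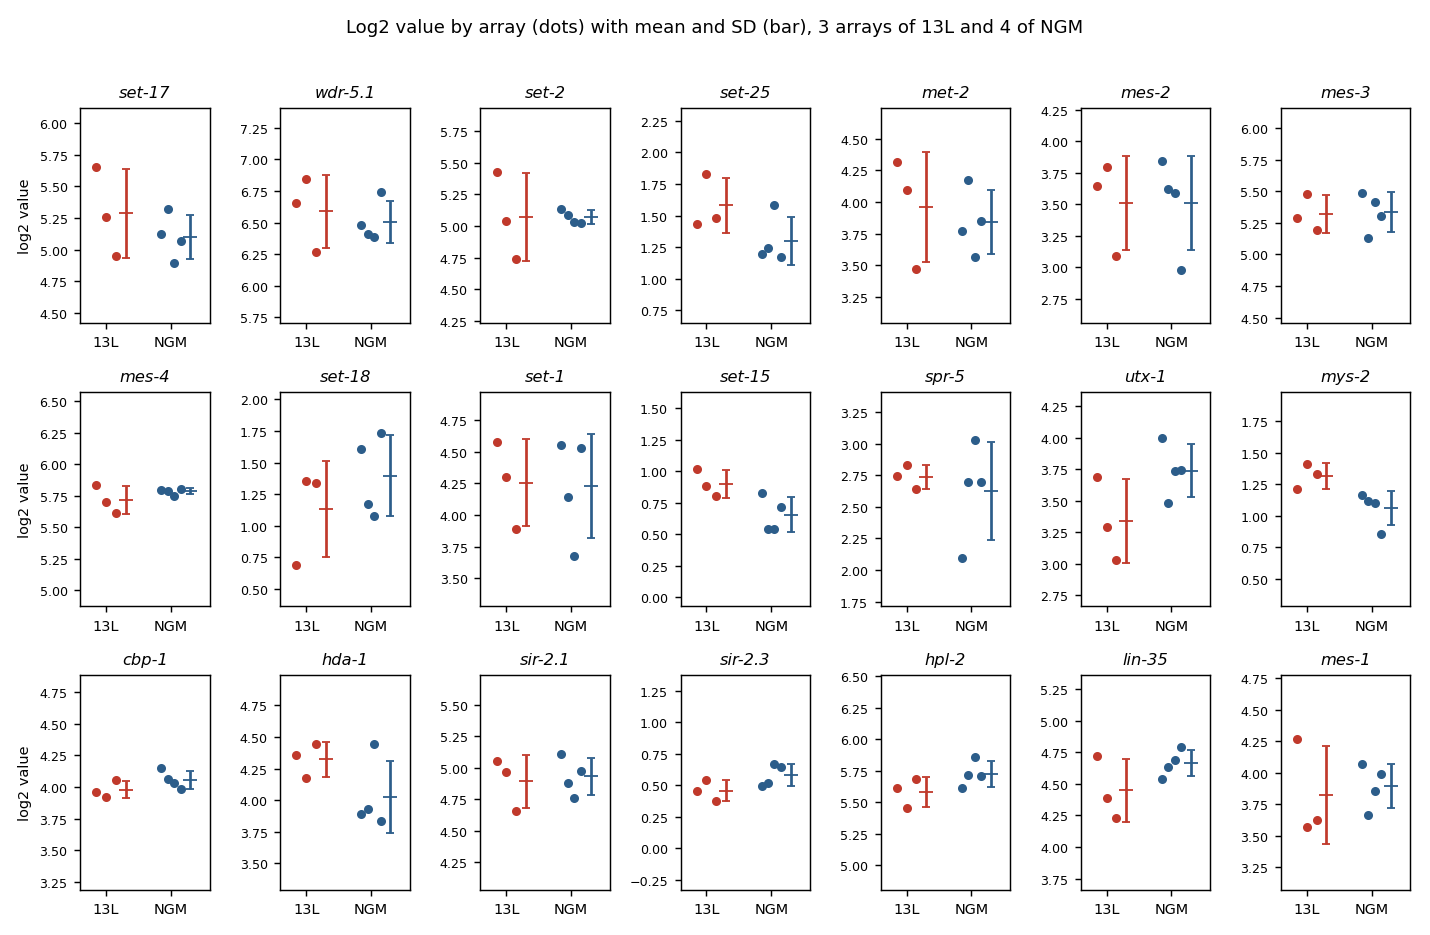
Log2 value on each array (y axis, dots) with mean and SD (bar) for the 21 genes whose values are given by array, 13L (3 arrays, left) and NGM (4 arrays, right), every panel spanning the same height on its own log2 axis. The 13L dots lie above all NGM dots for mys-2, and in every other panel the groups overlap.

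The 4 acetyltransferases were positive in 2 cases and negative in 2. mys-2, of the MYST family, was the gene whose groups did not overlap. Its probe set, of the _s_at type, had a low mean of 1.17 over the 7 arrays. The yeast controls had means of up to 0.742, and the array medians were 1.01 to 1.06. It read 1.21, 1.41 and 1.33 on 13L and 1.16, 1.12, 1.1 and 0.86 on NGM. The means were 1.32 ± 0.10 on 13L (SD, n = 3) and 1.06 ± 0.14 on NGM (SD, n = 4). The difference was 0.25 ± 0.10 (SE), or 1.19 times the NGM level, with a 95% interval of 0.017 to 0.49 (unadjusted p = 0.0382, adjusted p = 0.944 from limma). The exact permutation test gave the smallest p it allows, 0.0571 (two-sided). With runs of array titles as blocks, a fit described below, the difference was 0.19 and the unadjusted p 0.111. The gap between SL4 and SL1 was only 0.046, and the unadjusted p was over 0.05 when SL8, SL12, SL9 or SL69 was left out. It was also over 0.05 without SL1 and SL69, with trend and robust settings and among probe sets above the yeast controls. cbp-1, the counterpart of the coactivators CBP and p300, read 3.96, 3.92 and 4.05 on 13L and 4.15, 4.06, 4.03 and 3.98 on NGM. Its 7 values spanned 0.23, among the narrowest ranges of the set, and the difference was -0.08 ± 0.09 (SE, adjusted p = 0.960 from limma), or -0.05 without SL8 or without SL1. mys-1, the counterpart of TIP60, differed by 0.06 and mys-4 by -0.02.

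Of the 8 histone deacetylases, 3 were positive and 5 negative, and 7 of them lay between -0.04 and 0.08. The exception was hda-1, a class I deacetylase that acts in the NuRD complex. It read 4.35, 4.17 and 4.45 on 13L and 3.89, 3.93, 4.45 and 3.83 on NGM. SL9 stood apart from the other NGM arrays and was level with SL12. The means were 4.32 ± 0.14 on 13L (SD, n = 3) and 4.02 ± 0.28 on NGM (SD, n = 4), a difference of 0.30 ± 0.16 (SE, unadjusted p = 0.0872, adjusted p = 0.944 from limma), and an exact permutation test gave p = 0.229 (two-sided). Without SL9 the difference was 0.44 (unadjusted p = 0.00327, adjusted p = 0.831 from limma). The second probe set of hda-1, below the yeast controls, differed by -0.0092. hda-2 and hda-3, the other class I deacetylases, differed by -0.01 and -0.04.

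The 4 sirtuins, deacetylases that use NAD, differed by -0.13 to 0.05. sir-2.1, studied in worms for its part in ageing and stress resistance, read 5.05, 4.97 and 4.66 on 13L and 5.11, 4.88, 4.76 and 4.98 on NGM. The difference was -0.04 ± 0.13 (SE), with a 95% interval of -0.33 to 0.24 (adjusted p = 0.982 from limma). The groups overlapped, with SL12 the lowest and SL1 the highest of all arrays. sir-2.3, a mitochondrial sirtuin whose probe set was below the yeast controls, read 0.45, 0.54 and 0.38 on 13L and 0.49, 0.52, 0.67 and 0.64 on NGM, a difference of -0.13 ± 0.09 (SE, unadjusted p = 0.204, adjusted p = 0.944 from limma).

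The 3 readers and corepressors were all negative, none with an unadjusted p under 0.05 on their brightest probe sets with all arrays. lin-35, the only retinoblastoma protein of the worm, read 4.72, 4.39 and 4.23 on 13L and 4.54, 4.64, 4.69 and 4.79 on NGM. The difference was -0.22 ± 0.13 (SE, unadjusted p = 0.126, adjusted p = 0.944 from limma). SL8 and SL12 lay below all NGM arrays, and SL4 lay among them. The difference was -0.35 without SL4 (unadjusted p = 0.0151 from limma) and -0.11 without SL12 (unadjusted p = 0.430). With the mean over both probe sets it was -0.27 (unadjusted p = 0.0315, adjusted p = 0.986 from limma). Without _s_at and _x_at probe sets the other probe set stood for lin-35 (-0.33, unadjusted p = 0.0126, adjusted p = 0.921 from limma). The unadjusted p was over 0.05 under the other alternatives. hpl-2, an HP1 protein that binds methylated H3K9, read 5.61, 5.45 and 5.69 on 13L and 5.62, 5.71, 5.86 and 5.71 on NGM. The difference was -0.14 ± 0.10 (SE, unadjusted p = 0.190, adjusted p = 0.944 from limma), and only SL12 lay above an NGM array (SL1). Without SL8 the difference was -0.08. All 5 probe sets of hpl-2 were negative, at -0.14 to -0.04, and such probe sets can share probes. hpl-1, the other HP1 protein, differed by -0.03.

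mes-1 entered by its prefix alone. It encodes a membrane protein that acts in the asymmetric divisions of the germline precursors and is no histone modifier. It read 4.27, 3.57 and 3.62 on 13L and 4.07, 3.67, 3.86 and 3.99 on NGM, a difference of -0.07 ± 0.18 (SE, adjusted p = 0.980 from limma).

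Values also varied between arrays of the same diet. The range over the 7 arrays was 0.17 to 1.45, with a median of 0.54. The narrowest belonged to set-27, which lies at background, and the widest to set-30. The 13L range was larger than the NGM range for 28 of the 62 genes. Within 13L, SL12 tended to lie below the other arrays. It was below both SL4 and SL8 for 35 of the 62 genes (56.5%), against 35.7% of all probe sets. Among the 53 genes above the yeast controls the share was 60.4%, against 40.7% of all probe sets above them. For the 31 SET domain genes it was 67.7%.

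SL12 was the lowest of all 7 arrays for 17 genes (27.4%), against 16.4% of all probe sets. These were hda-10, hpl-1, jmjd-1.2, lin-35, mes-4, met-2, set-2, set-5, set-10, set-14, set-16, set-22, set-32, sir-2.1, sir-2.3, utx-1 and wdr-5.1, which include writers, erasers and readers. For these 17, SL4 exceeded SL12 by 0.076 to 0.84. SL4 was the highest of the 7 arrays for 15 of the 62 genes (24.2%), against 13.6% of all probe sets, and SL12 for 4 (6.45%), against 18.3%. The median deviation of the 62 genes from their mean over the arrays was 0.07 on SL4, 0.06 on SL8 and -0.09 on SL12, against 0.03 on SL1, -0.04 on SL5, -0.02 on SL9 and 0.04 on SL69. Among the role groups the lowest medians on SL12 were -0.34 for the 3 readers and corepressors and -0.32 for the 3 H3K9 methyltransferases. The 2 genes of the PRC2-like complex followed with -0.28. Medians as low also stood on NGM arrays, with -0.37 on SL9 for the 2 H4K20 methyltransferases and -0.28 on SL69 for the PRC2-like complex.

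**Figure D3:**
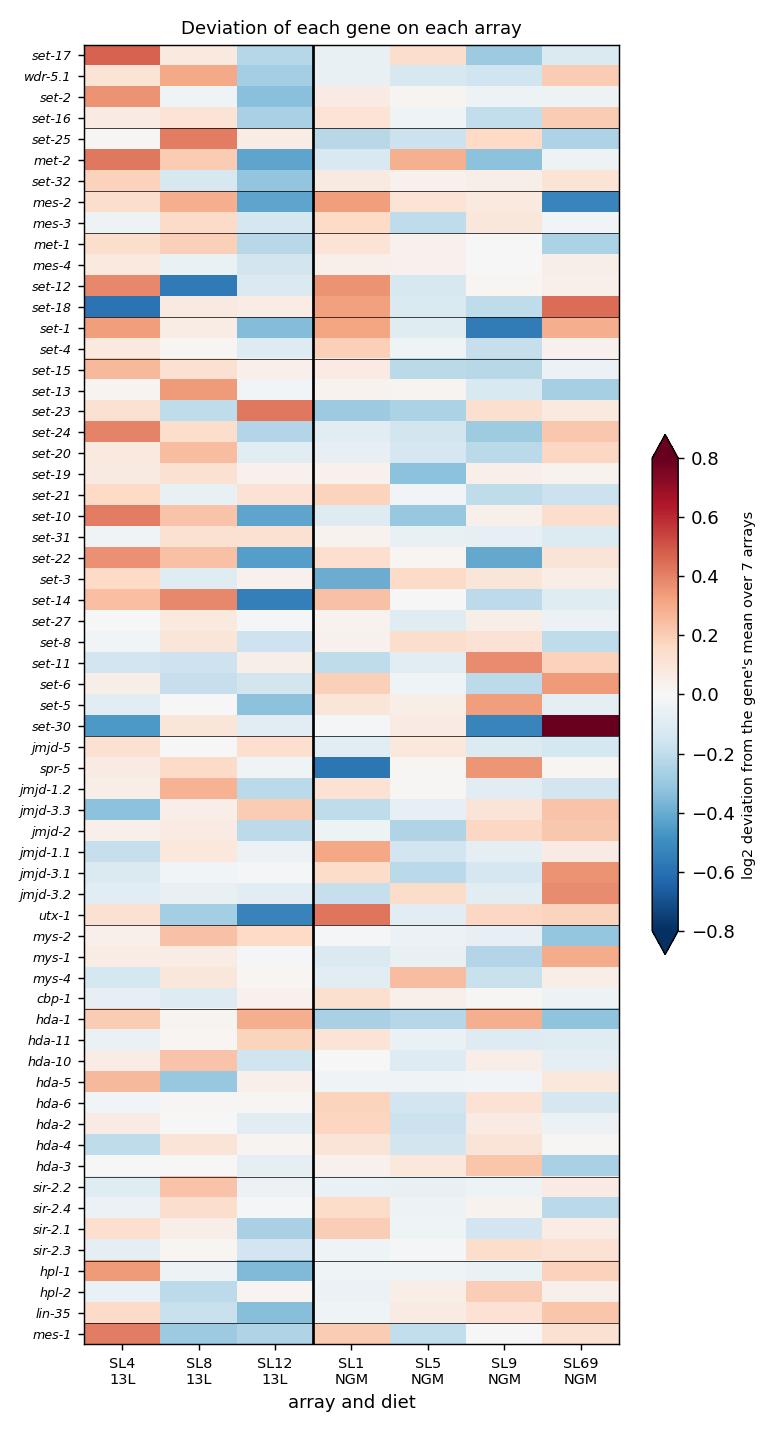
Deviation of each gene (row) from its own mean over 7 arrays (colour, log2 scale) on each array (column), the 3 arrays of 13L left of the 4 arrays of NGM and rows grouped by role. SL12 is mostly blue, with a median deviation of -0.09, while SL4 (0.07) and SL8 (0.06) are mostly red, and the dark red cell on SL69 is set-30.

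Other transcripts moved over the same arrays. The 11 sperm markers had a median deviation of -0.39 on SL4, 0.12 on SL8 and 0.45 on SL12, against -0.49 on SL1, 0.60 on SL5, 0.13 on SL9 and -0.28 on SL69. In these medians SL12 was thus the highest 13L array for the sperm markers and the lowest for the 62 genes. SL4 and SL8 were nearly level for the 62 genes (0.07 and 0.06). Among the NGM arrays, SL5 was likewise highest for the sperm markers and lowest for the 62 genes (-0.04). The 6 muscle markers had a median deviation of -0.13 on SL4 and 0.27 on SL12. The 14 germline markers had 0.07 on SL4, 0.07 on SL8 and -0.01 on SL12, and the sum of their log2 values lay between 85.5 and 87.4 on 13L, against 84.4 and 85.4 on NGM. SL12 was below SL4 and SL8 for 8 of these 14 (57.1%), against 40.7% of all probe sets above the yeast controls. Between the diets, the germline markers had a median difference of 0.11 (11 of 14 positive, 1 of them at an unadjusted p under 0.05). The 12 neuron markers had -0.20 (10 negative, 2 of them at an unadjusted p under 0.05). At that level, 1 of 13 oocyte and eggshell markers was higher and 1 of 10 embryo markers lower. Of all probe sets, 2.54% were higher and 2.57% lower. The sum of the neuron markers' log2 values lay between 30.1 and 31.5 on 13L, against 31.4 and 34.8 on NGM. SL12 also had the lowest of the array weights estimated by limma (0.679). The part of these in the values of the chromatin genes was not tested.

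**Figure D4:**
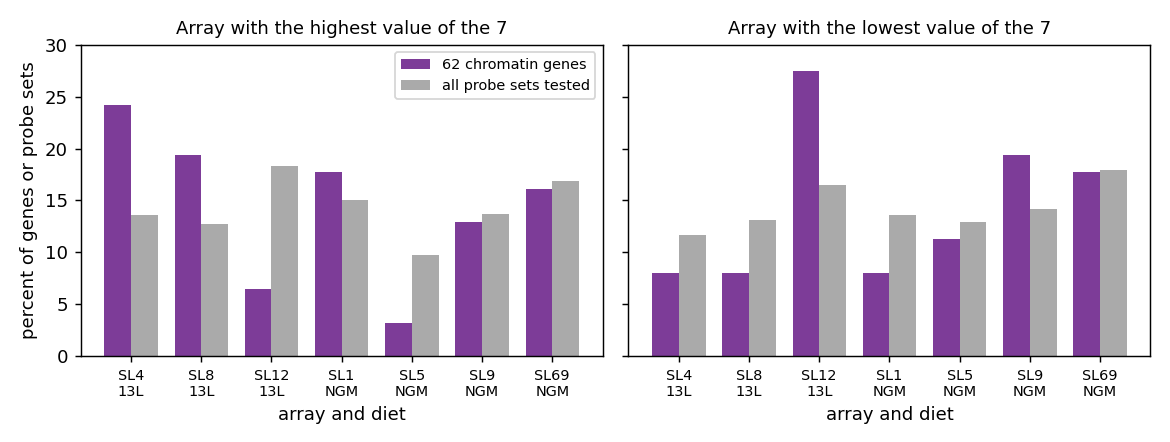
Percent of the 62 chromatin genes (purple) and of all 22548 probe sets (grey) for which each array, 13L left and NGM right, held the highest (left panel) or the lowest (right panel) of the 7 values. SL4 was highest for 24.2% of the genes and SL12 lowest for 27.4%, against 13.6% and 16.4% of all probe sets.

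Leaving SL12 out made the median difference 0.055, and leaving SL4 out made it -0.043. Without SL12 the groups did not overlap for 10 genes (16.1%), against 14.2% of all probe sets with the same arrays, since fewer arrays overlap less often by construction. The genes with an unadjusted p under 0.05 were then set-10, set-14 and set-15 (4.84%), against 4.73% of all probe sets. Without SL4 they were lin-35, mys-2, set-12, set-32 and utx-1 (8.06%), against 5.45%, and no gene was on both lists.

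Numbers in the array titles form runs (SL1 and SL4, SL5 and SL8, SL9 and SL12), though no source says that a run marks a batch. Over probe sets, the arrays of a pair deviated from the means of their groups with correlations of 0.529, 0.156 and 0.537. In all 3 runs 13L exceeded NGM for 7 genes (mys-1, mys-2, set-1, set-15, set-20, set-23 and set-24), which is 11.3%, against 14.6% of all probe sets. It lay below NGM in all 3 for 5 genes (hda-3, hpl-2, set-5, set-8 and utx-1), which is 8.06%, against 14.3%. With runs as blocks, 2 genes were higher at an unadjusted p under 0.05, against 3.82% of all probe sets, and 1 was lower, against 4.06%. The higher genes were set-15 (0.26, unadjusted p = 0.0297) and set-24 (0.27, unadjusted p = 0.0460), and the lower gene was utx-1 (-0.40, unadjusted p = 0.0122, adjusted p = 0.548 from limma). For mys-2 this fit ended the unadjusted call, as given above. SL69 has no partner, so these differences rest on the other 6 arrays.

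For 22 of the 62 genes there was more than 1 probe set. Of their 27 dimmer probe sets, 18 had the same sign as the brightest and 9 the opposite, and for 13 genes all probe sets had 1 sign. Over all 89 probe sets, 7 (7.87%) had an unadjusted p under 0.05, against 5.11% of all probe sets tested. The 4 that are not the brightest, 14.8% of the 27 dimmer probe sets, belonged to met-2, set-4, lin-35 and hda-10. Those of met-2, set-4 and hda-10 are _x_at or _s_at probe sets, which an alternative fit given below leaves out.

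The dimmer probe set of met-2 read 3.50, 3.48 and 3.39 on 13L and 3.28, 3.18, 3.14 and 3.17 on NGM, a difference of 0.26 ± 0.08 (SE, unadjusted p = 0.0127, adjusted p = 0.944 from limma), while the brighter had 0.12. SL12 was the nearest 13L array to SL1, the highest of NGM. For set-4 it read 4.92, 4.93 and 4.71 on 13L and 4.56, 4.58, 4.38 and 4.69 on NGM, a difference of 0.30 ± 0.11 (SE, unadjusted p = 0.0195), while the brighter had -0.0038. SL12 lay just above SL69. For lin-35 it read 4.01, 3.68 and 3.88 on 13L and 4.08, 4.21, 4.30 and 4.15 on NGM, a difference of -0.33 ± 0.11 (SE, unadjusted p = 0.0141), and the brighter had -0.22. Both differences of lin-35 were negative, and SL4 lay below all NGM arrays only on the dimmer. For hda-10 it read 1.71, 1.64 and 1.42 on 13L and 1.74, 1.81, 2.40 and 2.22 on NGM, a difference of -0.45 ± 0.17 (SE, unadjusted p = 0.0264), while the brighter had 0.07. The groups did not overlap for any of the 4, and none had an adjusted p under 0.944 from limma. Of the 27 dimmer probe sets, 13L lay above all NGM arrays for 2 and below them for 3. The shares of all probe sets were 3.31% and 2.77%. Beside lin-35 and hda-10, the lower ones include a probe set of jmjd-3.3 below the yeast controls (-0.18, unadjusted p = 0.0775 from limma).

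**Figure D5:**
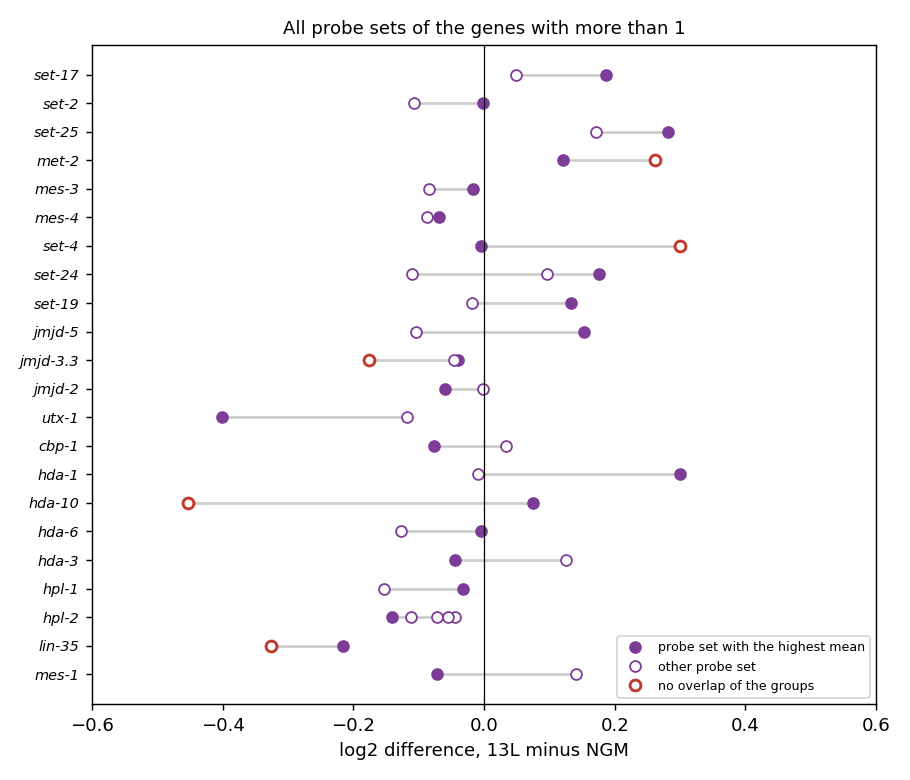
Log2 difference, 13L minus NGM (x axis), for every probe set of the 22 genes with more than 1, filled where the probe set has the highest mean, open otherwise, and outlined in red where the 3 arrays of 13L do not overlap the 4 of NGM. The open dot of hda-10 (-0.45) lies far from its filled dot (0.07), and the 5 dots of hpl-2 lie together between -0.14 and -0.04.

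Of 81 further chromatin genes listed by complex, 77 were measured, 30 of them positive and 47 negative, with a median of -0.02. The unadjusted p was under 0.05 for 2 higher and 3 lower genes, against 2.54% and 2.57% of all probe sets, and none was under 0.05 after adjustment (lowest adjusted p = 0.944 from limma). The 13L arrays lay above all NGM arrays for 5 of the 77 and below them for 4, against 3.31% and 2.77% of all probe sets. The higher were hat-1, a histone acetyltransferase of newly made H4 (0.35, unadjusted p = 0.0107), and bet-1, a bromodomain protein that binds acetylated histones (0.33, unadjusted p = 0.00838). The lower were the remodellers chd-7 (-0.37, unadjusted p = 0.00810) and chd-1 (-0.32, unadjusted p = 0.0194), and amx-1, an amine oxidase related to LSD1 (-0.36, unadjusted p = 0.0214). These 5 were among the 9 whose groups did not overlap.

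chd-7 read 5.24, 5.26 and 5.03 on 13L and 5.73, 5.42, 5.45 and 5.60 on NGM, with SL5 the nearest NGM array. bet-1 read 3.52, 3.55 and 3.31 on 13L and 3.14, 3.07, 3.07 and 3.24 on NGM. Of the 12 genes of the NuRD, MEC, coREST and SIN3 complexes, which hold histone deacetylases, 2 were positive and 10 negative, with a median of -0.08 and none at an unadjusted p under 0.05. Their leading gene by moderated t, dcp-66, a NuRD subunit, differed by -0.18 (unadjusted p = 0.143 from limma). The differences of the 12 ran from -0.38 to 0.14. In the DREAM and heterochromatin list of 20, lin-54, the DNA-binding subunit of DREAM, led by moderated t with 0.20 (unadjusted p = 0.0693 from limma). The differences of the 20 ran from -0.22 to 0.20. SL12 was below SL4 and SL8 for 50 of the 77 genes (64.9%), all of which lay above the yeast controls. The share was 60.4% of the 53 genes above them and 40.7% of all probe sets above them.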

How the data were processed

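The authors used RMA for background correction and quantiles for normalization. Deposited values are log2 values per probe set, whose offset is not stated. RMA and limma stand in the submitters' processing notes, without versions. Scanner files were not used here.

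Each array held 22625 probe sets, of which 77 are Affymetrix controls and 22548 were tested. Gene names came from the platform's annotation, in which 20766 had 1 gene, 887 several and 895 none, and those with several named no gene. For 13L (3 arrays) against NGM (4 arrays), limma 3.58.1 in R 4.3.3 was fitted without trend to all probe sets tested, and the two-sided p-values of its moderated test were adjusted over all of them by Benjamini-Hochberg, with a threshold of 0.05. The exact permutation p is the smaller tail doubled. Samples are separate by their labels, and where they are not separate cultures, p-values measure technical spread. The procedure was tested on simulated data.

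Genes were given by array where the unadjusted p was under 0.05 or the groups did not overlap, where they led their role group by moderated t, and for 12 genes picked for their known roles. Some further genes are named that were picked with their values in view. The set, the lists and these rules were chosen with earlier results of these data known. No genome build is named by the files, so no coordinates are given, and no sequences were used here. Alternatives were each array left out, SL1 and SL69 left out, runs of title numbers as blocks, array weights, cyclic loess, centring on array medians, trend and robust settings, probe sets above the yeast controls, probe sets without _s_at and _x_at, and the mean over all probe sets of a gene.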

Additional observations from a re-analysis of the deposited data

Results flagged for a closer look

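In the NGM group of 4 arrays, 5 of the 62 genes had 1 array far from the others by Dixon's test, whose cutoff is set to flag about 1 in 20 groups by chance. The share of all probe sets that this test flags was not counted, so the 5 cannot be called particular to these genes. hda-1 stood at 4.4459 on SL9, against 3.83 to 3.93 on the other NGM arrays. hda-5 stood at 1.3298 on SL69, against 1.21 to 1.22, hpl-1 at 2.6767 on SL69, against 2.44 to 2.46, and sir-2.2 at 1.7067 on SL69, against 1.58 to 1.60. set-19 stood at 0.5495 on SL5, against 0.908 to 0.919. The 13L group of 3 arrays was too small for this test.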

How the results depend on the processing

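No gene of the 62 passed an adjusted p of 0.05 under any alternative run, and the lowest adjusted p of a gene given by array was 0.548, with runs of title numbers as blocks. The count of genes at an unadjusted p under 0.05 was 3 with all arrays (4.84%, against 5.11% of all probe sets). It was 1 with trend and robust settings (1.61%, against 4.82%) and 1 without SL1 and SL69 (1.61%, against 4.49%). Among probe sets above the yeast controls it was 0 of 53, against 5.1% of all such probe sets. Without _s_at and _x_at probe sets it was 3 of 44 (6.82%), against 5.15% of all probe sets left. With 1 array left out it was 0 (without SL8) to 5 (without SL4). There the share of all probe sets was 3.73% (without SL8) to 5.86% (without SL9). The count of genes whose groups did not overlap was 1 with all arrays (1.61%, against 6.08% of all probe sets). With the mean over all probe sets of a gene it was 2 (3.23%, against 5.46% of all genes). It was 11 without SL1 and SL69, and 3 (without SL5) to 10 (without SL12) with 1 array left out. Fewer arrays overlap less often by construction. The share of all probe sets was 20.2% without SL1 and SL69, against 17.7% of the 62 genes, and 9.82% (without SL1) to 14.6% (without SL4) with 1 array left out, against 4.84% to 16.1% of the 62. This count has no value for the blocked fit. The median difference of the 62 genes was 0.055 without SL1 and SL69 and -0.043 (without SL4) to 0.055 (without SL12) with 1 array left out. Over all 22548 probe sets, 1152 (5.11%) had an unadjusted p under 0.05 from limma. Among the 13225 above the yeast controls 674 (5.1%) did, and with runs as blocks 1777 of 22548 (7.88%).

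Of the 21 genes given by array, 11 kept their sign throughout. The others were mes-1, mes-2, mes-3, met-2, set-1, set-2, set-18, sir-2.1, spr-5 and wdr-5.1, and among them set-18 had the largest difference (-0.27). With array weights the difference became 0.040 for mes-3, 0.032 for set-2 and 0.0067 for sir-2.1. It became -0.0076 for mes-2 with median centring, 0.0014 for set-2 with cyclic loess, 0.034 for mes-1 with the mean of probe sets and -0.17 for mes-2 with runs as blocks. Without SL1 and SL69 it became 0.061 for mes-1, -0.093 for mes-2, 0.046 for mes-3, 0.0084 for set-2, 0.0066 for set-18, 0.069 for sir-2.1 and -0.12 for spr-5. With 1 array left out the ranges were -0.30 to 0.053 for mes-1, -0.17 to 0.21 for mes-2, -0.098 to 0.047 for mes-3, -0.057 to 0.37 for met-2, -0.16 to 0.21 for set-1, -0.18 to 0.16 for set-2, -0.12 to 0.077 for sir-2.1, -0.067 to 0.24 for spr-5 and -0.044 to 0.24 for wdr-5.1. The causes were not tested. Signal over background limits the 9 genes at or below the yeast controls.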
